A study of Mus musculus with 24 samples.

Results

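TRBV31 was 1 of 22 TRBV rows in the deposited Tcrb tables, chosen by its name, and its 11 cells with the TRBJ columns were 11 of the 242 V–J pairs. Across the 4 receptor chains of the series the tables held 161 V rows. T cell receptor transcripts were read from thymocytes of C57BL/6 mice aged 4 to 12 weeks, with 3 wild-type and 3 Satb1-/- Tcrb libraries. Both groups share strain, tissue and age range, and the labels give no other allele or agent for either. The protein encoded by Satb1 binds DNA in the nucleus and helps to fold chromatin in developing T cells. The series design calls the knockout conditional, and the driver of the deletion is not given in the sources used here. The tables hold receptor segments only, so neither the loss of Satb1 nor thymocyte markers could be checked in them. Nothing in the labels says that libraries of 1 genotype came from separate mice. Each p-value therefore rests only on how far these libraries spread, and that spread may be technical. In limma the spread was also pooled, partly or wholly, over the rows of a fit. The libraries carry numbers 1 to 3 in both genotypes.

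A T cell receptor beta chain is assembled in developing thymocytes: a D segment first joins a J segment, and a V segment then joins the DJ product. The locus has 2 D–J–C clusters in a row, so a transcript that carries a TRBJ1 segment normally ends in the first constant region and a TRBJ2 transcript in the second. Nearly all V segments lie upstream in the same orientation and join by deletion of the DNA in between. Trbv31, known in older work as Vbeta14, lies beyond the second constant region in the opposite orientation, so that it joins by inversion and the intervening DNA is kept.

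In GENCODE M21 (GRCm38) Trbv31 was annotated at chromosome 6, 41557691 to 41558452, on the minus strand. It was the only 1 of the 22 listed V segments on that strand, while the other 21 lay on the plus strand upstream of Trbd1. Its coding part had 2 exons, a leader exon of 43 bases (41558329 to 41558371) and a V exon of 291 bases (41557691 to 41557981). Trbv31 lay 9.3 kb beyond the end of Trbc2 and 24.5 kb beyond Trbd1. Trbv30, the listed V segment nearest to Trbd1 on the other side, ended 251.2 kb upstream of it, and Trbv1, the most distant, started 642.0 kb upstream. The map of the locus shows this layout.

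**Figure D1:**
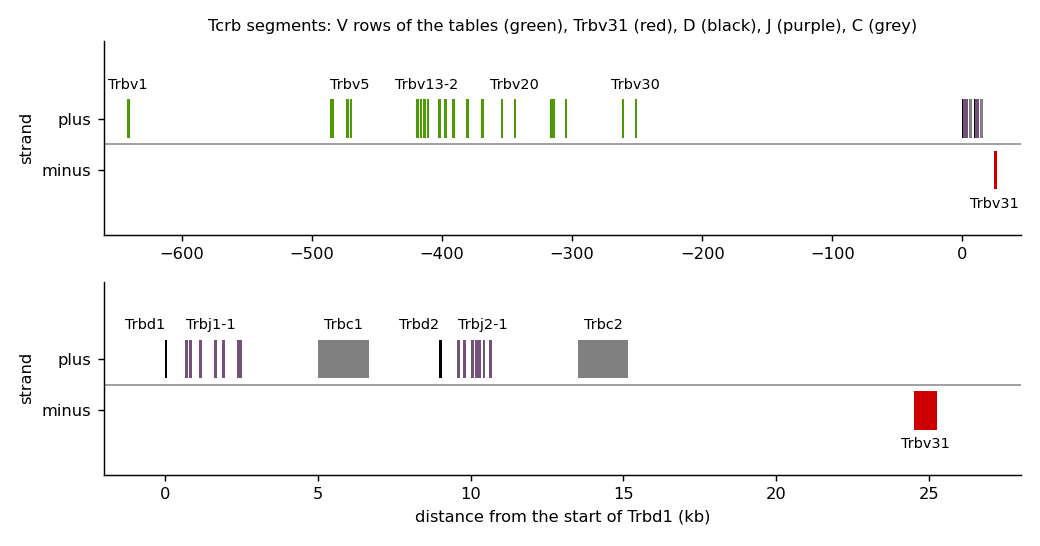
Map of the Tcrb segments on GRCm38 as distance in kb from the start of Trbd1, over the whole locus (top) and over the D–J–C clusters (bottom). Bars above the line are on the plus strand and bars below it on the minus strand, and J segments of the annotation that are not among the 11 columns are drawn too. Trbv31 (red) is alone on the minus strand, 24.5 kb beyond Trbd1.

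The sequences below show what was joined: the V exon of Trbv31 (41557691 to 41557981), the most used (TRBJ2-7) and least used (TRBJ1-5) of its J partners, and TRBJ1-1 and TRBJ1-2, the partners whose share within TRBV31 differed most between the genotype means. They were read from the GENCODE M21 transcripts, 5′ to 3′ on the coding strand. Capitals mark in TRBV31 the codon of the conserved cysteine that opens the third complementarity-determining region (bases 276 to 278 of the exon), and in the J segments the codons of the Phe-Gly-X-Gly motif that closes it, which was found once in each of the 11 J segments.
TRBV31: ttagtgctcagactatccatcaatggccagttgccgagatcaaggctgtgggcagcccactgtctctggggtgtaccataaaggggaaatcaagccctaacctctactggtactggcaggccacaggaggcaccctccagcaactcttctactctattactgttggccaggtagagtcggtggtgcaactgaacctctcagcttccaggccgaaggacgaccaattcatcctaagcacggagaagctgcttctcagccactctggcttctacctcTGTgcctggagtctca
TRBJ2-7: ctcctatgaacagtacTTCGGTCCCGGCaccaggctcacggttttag
TRBJ1-5: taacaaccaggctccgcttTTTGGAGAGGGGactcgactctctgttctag
TRBJ1-1: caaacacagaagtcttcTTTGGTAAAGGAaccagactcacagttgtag
TRBJ1-2: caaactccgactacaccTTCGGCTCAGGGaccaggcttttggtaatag
In global alignment of annotated transcripts, TRBV2 and TRBV19 scored highest against TRBV31, both at 68.6% of bases identical over the shorter transcript. Their transcripts are longer (560 and 566 bases against 334), which leaves more places to match. The score therefore does not settle which V segments are most like TRBV31. The related segments TRBV13-2 and TRBV13-3, both of 340 bases, were 90.6% identical.

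TRBV31 held between 2.68% and 5.41% of the Tcrb assignments of a library. Its share was 5.41%, 3.15% and 3.12% in wild-type libraries 1, 2 and 3, and 4.48%, 2.69% and 2.68% in the knockout libraries of the same numbers. In both genotypes library 1 was the high one, and libraries 2 and 3 were nearly alike. The ranges of the genotypes overlapped, with a mean of 3.89% ± 1.31 (SD, n = 3) in wild type and 3.28% ± 1.04 (SD, n = 3) in the knockout. In limma over the 22 V rows on log2(percent + 0.00570) the knockout differed by -0.24 (SE 0.28, 95% interval -0.87 to 0.39, adjusted p = 0.854), and without wild-type library 1 the difference was 0.02. Of the 22 V rows, 0 were called at an adjusted p of 0.05 (0%), and 3 had an unadjusted p under 0.05 (13.6%). The exact two-sided permutation test of the share gave p = 0.5, adjusted 0.8 over 4 single values, where 3 against 3 libraries allow no p below 0.1. This test, like those of the other single values, did not pair libraries by number. The difference between numbers is therefore part of its spread.

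Set side by side by library number, the share in the knockout was lower each time. The knockout to wild-type ratio of TRBV31 was 0.828 for number 1, 0.852 for number 2 and 0.858 for number 3. These ratios spanned 0.05 on the log2 scale, the narrowest span of the 22 V rows, whose widest was 1.43 for TRBV30. This feature of TRBV31 was chosen after its values were seen. In 5 V rows, TRBV31 among them, all 3 ratios lay below 1, and in 3 V rows all lay above 1. With the number as a block in limma, the difference for TRBV31 was again -0.24, with an SE of 0.09, a 95% interval of -0.47 to -0.02, an unadjusted p of 0.0402 and an adjusted p of 0.153. That fit called 3 of the 22 V rows (13.6%; 6 at an unadjusted p under 0.05, 27.3%), and TRBV31 was not one of them.

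**Figure D2:**
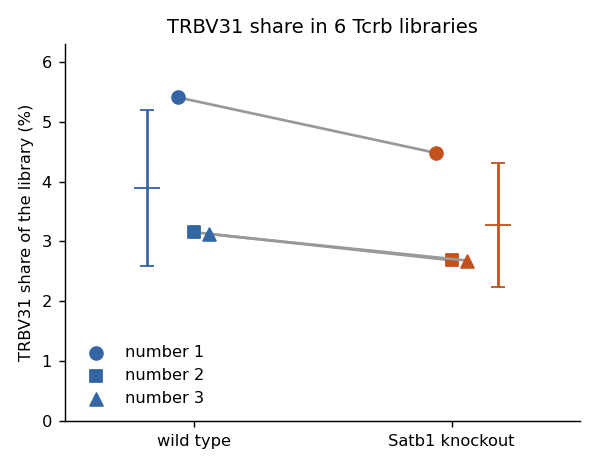
TRBV31 share of each Tcrb library in percent, wild type in blue and knockout in orange, with lines joining libraries of equal number and bars giving mean and SD of 3. Library 1 is the highest in both genotypes (5.41% and 4.48%), and each line falls by a similar proportion.

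The contrast between library 1 and the others was larger for TRBV31 than for any other V row. The libraries of number 1 held 1.70-fold the share of those of numbers 2 and 3 (geometric means over both genotypes). The next was TRBV23 with 1.56-fold, and the lowest was TRBV3 with 0.730-fold. What the number stands for is not given in the labels, and its part in the share was not tested. Without the libraries of number 1 the genotype difference of TRBV31 was -0.23 in limma (adjusted p = 0.601), with 2 libraries in each group.

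**Figure D3:**
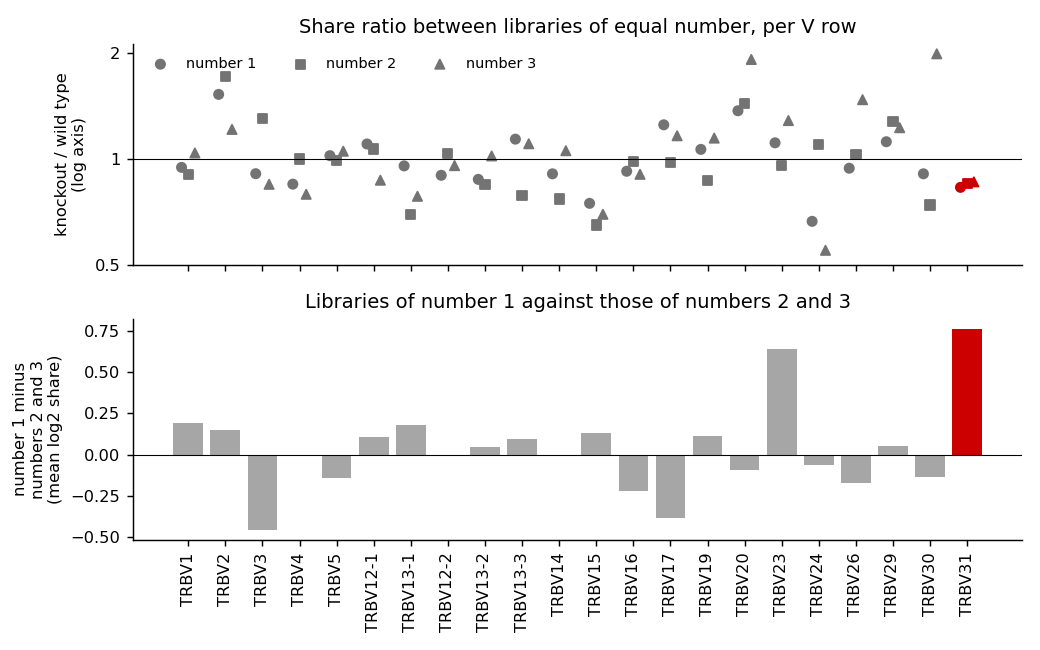
Top: ratio of knockout to wild-type share between libraries of equal number for each V row, on a log axis, with 1 symbol per number. Bottom: mean log2 share in the libraries of number 1 minus that in numbers 2 and 3. TRBV31 (red) has the tightest ratios, 0.828 to 0.858, and the highest bar, 0.76.

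By its mean over the 6 libraries TRBV31 ranked 14th of 22 V rows, at 3.59% ± 1.11 (SD, n = 6). TRBV20, next above it, held 3.87% ± 0.986, and TRBV1, next below, 3.52% ± 0.395. The ranges of these 3 rows overlapped, so their order is not settled by these libraries. TRBV31 stood between rank 8 and rank 17 in single libraries. TRBV30 held 0.473% ± 0.121, and its highest library (0.631%) lay under the lowest of TRBV31 (2.68%). Among V rows of at least 0.5%, those whose log2 share followed that of TRBV31 most closely over the 6 libraries were TRBV23 (Pearson r = 0.784), TRBV1 (r = 0.648) and TRBV15 (r = 0.513). At the other end lay TRBV17 (r = -0.890), the largest in size, and TRBV3 (r = -0.712). These are descriptions over 6 libraries that share 3 numbers and whose shares sum to the whole of each library.

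The next question was which J segments TRBV31 was joined to. All 11 J columns were used with TRBV31 in all 6 libraries. The lowest cell was TRBJ1-5 in knockout library 3, at 0.0659% against a smallest listed value of 0.0110% there. TRBJ2-7 was the most used partner on average, with 15.8%, 18.7% and 12.3% of TRBV31 in wild-type libraries 1, 2 and 3, and 14.4%, 12.9% and 14.3% in the knockout. It led in 4 libraries, while TRBJ1-2 led in wild-type library 3 and TRBJ1-1 in knockout library 2. TRBJ2-5 followed with a mean of 12.3% over the 6 libraries, and TRBJ1-5 was the least used at 2.86%. TRBJ1-3 lay at 5.18%, TRBJ2-2 at 7.20% and TRBJ1-2 at 7.76%. The remaining partners, TRBJ2-3, TRBJ1-4, TRBJ2-1, TRBJ2-4 and TRBJ1-1, lay between 9.56% and 10.96%.

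This profile resembled that of all other V rows combined. In those rows TRBJ2-7 held a mean of 15.3% and TRBJ1-5 3.16%, again the highest and the lowest. The Jensen-Shannon distance, which is 0 for identical profiles and at most 1, was 0.0470 between TRBV31 and the sum of the other rows, the eighth lowest of the 20 V rows that averaged 0.5% or more. TRBV13-2 was nearest to its own remainder at 0.0313 and TRBV14 farthest at 0.115. The rows whose profile was nearest to that of TRBV31 were TRBV4 (0.0452), TRBV3 (0.0490) and TRBV2 (0.0546). All 3 belong to the upstream group TRBV1 to TRBV5, but the other members of that group were farther away. TRBV1, the most upstream, ranked 7 (0.0618) and TRBV5 ranked 12 (0.0752), both behind TRBV12-2 (0.0598). Nearness in profile thus did not follow position in the locus throughout.

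**Figure D4:**
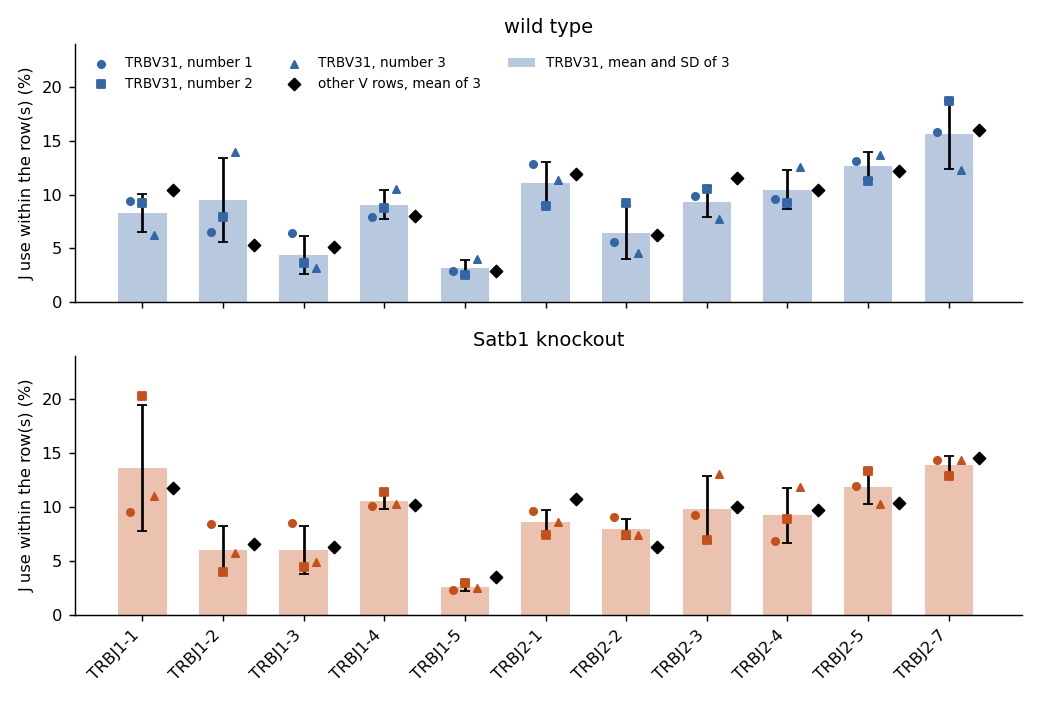
J use within TRBV31 in percent for wild type (top) and knockout (bottom): bars give mean and SD of 3 libraries, symbols single libraries, and black diamonds the mean J use of all other V rows together. TRBJ2-7 is the highest wild-type bar (15.6%) and TRBJ1-5 the lowest in both genotypes, and the diamonds follow the same order in outline.

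Each pair was also set against the value expected from the share of its V row and the J use of the other V rows. Over both genotypes the observed to expected ratio of the TRBV31 pairs ran from -0.22 for TRBJ2-1 to 0.29 for TRBJ1-2 on the log2 scale. TRBJ2-1 lay below expectation in 5 of 6 libraries (95% interval -0.45 to 0.01, limma adjusted p = 0.285). None of the 11 TRBV31 pairs was called by limma, and 0 had an unadjusted p under 0.05. Over the 209 pairs that averaged 0.1% or more, 6 were called (2.87%) and 38 had an unadjusted p under 0.05 (18.2%); with the number as a block the calls were 9 (4.31%). Leaving out 1 library brought the 6 calls to 1, 0 and 0 without wild-type library 1, 2 or 3, and to 2, 0 and 1 without knockout library 1, 2 or 3.

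The knockout was then compared with wild type for the TRBV31 pairs as shares of the library. Of the 11 pairs, 3 had a higher and 8 a lower mean log2 share in the knockout, with a median difference of -0.34 against 0.01 over all 209 pairs tested. Of the 209 pairs, 108 were higher and 101 lower. The 11 pairs are parts of the TRBV31 share, which itself differed by -0.24, and by 0.02 without wild-type library 1. Relative to the J use of the other V rows, 5 of the 11 were higher and 6 lower in the knockout. None of the 11 was called by limma, as was the case for all 209 pairs (0 called, 0%; 25 with an unadjusted p under 0.05, 12%), and in none of the 11 did the genotype ranges stay apart, which they did in 38 of the 209 pairs (18.2%). With the number as a block, limma again called 0 of 209, with 35 at an unadjusted p under 0.05 (16.7%).

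On the log2 scale of library share, TRBJ1-2 gave the largest difference among the TRBV31 pairs. It made up 6.56%, 7.95% and 13.96% of TRBV31 in wild-type libraries 1, 2 and 3, and 8.40%, 3.96% and 5.74% in the knockout. Wild-type library 3 was the high one and knockout library 1 lay above wild-type libraries 1 and 2, so the groups overlapped. As a share of the library the pair differed by -0.86 on the log2 scale (SE 0.41, limma adjusted p = 0.395). In the other V rows the mean for TRBJ1-2 was higher in the knockout, at 6.59% ± 0.463, than in wild type, at 5.28% ± 0.756 (SD, n = 3). Relative to the other rows the genotype difference was -0.94 (SE 0.39, unadjusted p = 0.0392, limma adjusted p = 0.615).

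TRBJ1-1, the first J segment of the locus, differed in the other direction. In percent of TRBV31 its means were 8.28% in wild type and 13.6% in the knockout. These lay further apart than those of TRBJ1-2 (9.49% and 6.03%). TRBJ1-1 made up 9.36%, 9.23% and 6.27% of TRBV31 in the wild-type libraries. The knockout libraries had 9.54%, 20.3% and 11.1%. Knockout library 2 was far above the rest, and the groups stayed apart by the small gap between 9.36% and 9.54%. On this scale of percent of the V row, TRBJ1-1 was the only 1 of the 11 TRBV31 pairs whose genotype ranges stayed apart, against 35 of all 209 pairs (16.7%). As a share of the library and relative to the other rows its genotype ranges overlapped. Relative to the other rows the genotype difference was 0.49 (SE 0.27, limma adjusted p = 0.812). The pair with TRBJ1-5 was low, at 0.158%, 0.0809% and 0.125% of wild-type libraries 1, 2 and 3. In the knockout libraries it held 0.103%, 0.0798% and 0.0659%, where the smallest listed values were 0.00570%, 0.0133% and 0.0110%. With that limit, TRBJ1-5 was relatively lower by -0.53 in the knockout (SE 0.20, unadjusted p = 0.0295, limma adjusted p = 0.615). Over all 209 pairs limma called 0 such differences (0%), with 16 at an unadjusted p under 0.05 (7.66%; 0 calls and 17, or 8.13%, with the number as a block).

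The J2 cluster made up 66.8%, 67.9% and 62.1% of TRBV31 in wild-type libraries 1, 2 and 3. In the knockout libraries it made up 61.2%, 56.9% and 65.6%. Knockout library 3 lay above wild-type library 3, so the groups overlapped, with means of 65.6% ± 3.10 and 61.2% ± 4.32 (SD, n = 3; exact two-sided permutation p = 0.2, adjusted 0.8 over 4 single values). The same cluster took 67.0%, 68.8% and 68.8% of the other V rows in the wild-type libraries. It took 61.1%, 59.6% and 64.5% of them in the knockout libraries. How evenly TRBV31 used its J partners, as Shannon entropy in bits, averaged 3.33 ± 0.0150 over the wild-type libraries against 3.33 ± 0.0579 over the knockout libraries (exact two-sided permutation p = 1). In the other V rows it averaged 3.329 ± 0.013 in wild type and 3.373 ± 0.011 in the knockout. There the genotype ranges stayed apart (at most 3.340 in wild type, at least 3.366 in the knockout), and the difference was not tested.

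Expressed as a ratio of the J2 to the J1 cluster, TRBV31 had 2.01, 2.11 and 1.64 in the wild-type libraries and 1.58, 1.32 and 1.90 in those of the knockout. For the other V rows the wild-type values were 2.03, 2.21 and 2.20, and the knockout values 1.57, 1.48 and 1.82. Over the 6 libraries TRBV31 lay below the other rows in 4 and above them in 2, the latter being knockout libraries 1 and 3. The mean log2 difference from the other rows was -0.10 (95% interval -0.25 to 0.06, limma adjusted p = 0.349; exact two-sided sign-flip permutation p = 0.25, where the smallest possible is 0.03125). The sign-flip test took the 6 libraries as independent, although they share library numbers. Wild-type library 3 alone gave -0.43, and without it the mean was -0.03. Of the 20 V rows tested, 8 differed from their remainder (40%; 9 at an unadjusted p under 0.05, 45%), 4 above and 4 below, and 5 did so without wild-type library 2. That fit gave every row the same SE of 0.078, although the wild-type SD was 0.329 in TRBV14 and 0.079 in TRBV17. Its calls thus do not rest on the spread of each row. With the number as a block the SE differed between rows, from 0.056 in TRBV5 to 0.102 in TRBV14. That fit called the same 8 of the 20 rows (40%). TRBV14 (0.55) and TRBV17 (0.48) had the highest relative ratios, and TRBV26 (-0.37) and TRBV20 (-0.36) the lowest. The inverted segment was not among the 8.

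**Figure D5:**
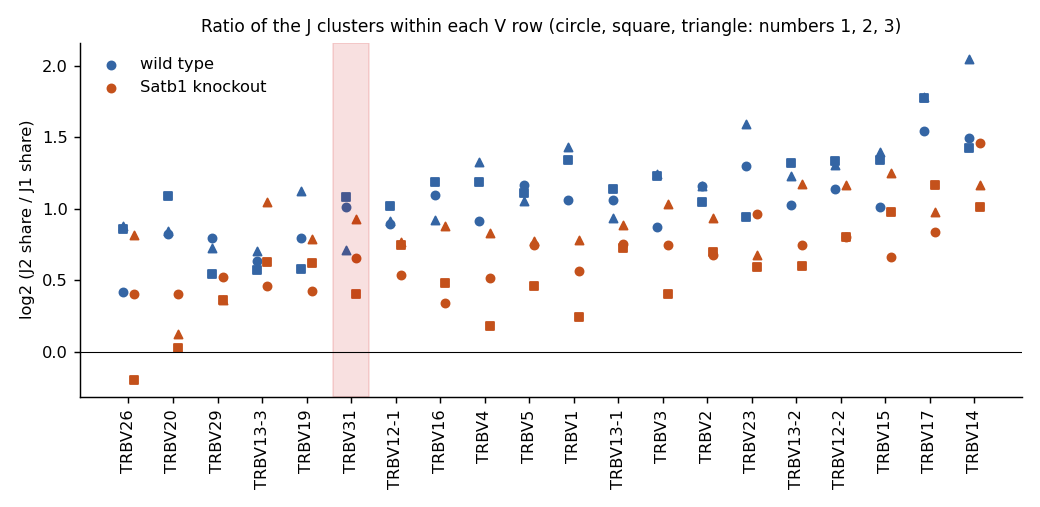
Log2 ratio of the J2 to the J1 share within each of 20 V rows, sorted by the mean over 6 libraries, wild type in blue and knockout in orange, with 1 symbol per library number. TRBV31 (shaded) is the sixth lowest, and its wild-type (0.71 to 1.08) and knockout (0.40 to 0.93) libraries overlap.

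From wild type to knockout the log2 ratio of TRBV31 differed by -0.27 (SE 0.18, 95% interval -0.63 to 0.09, limma adjusted p = 0.172). Of the 20 V rows, 8 fell (40%; 10 at an unadjusted p under 0.05, 50%) and 0 rose, and 19 of 20 had a difference below 0, with a median of -0.37. Called rows were 3 of 5 in TRBV1 to TRBV5, 0 of 5 in TRBV12 and TRBV13, 4 of 6 in TRBV14 to TRBV20 and 1 of the 3 tested in TRBV23 to TRBV30. The count of 8 went to 4 without wild-type library 1, 5 without wild-type library 3, 3 without knockout library 2 and 15 without knockout library 3. In 10 of the 20 rows the genotype ranges stayed apart (50%), and TRBV31 was not one of these. The largest falls were in TRBV1 (-0.75), TRBV20 (-0.73) and TRBV17 (-0.71). The genotype difference of TRBV31 relative to the other rows was 0.14 (95% interval -0.17 to 0.45, limma adjusted p = 0.749), so a weaker shift in TRBV31 was not shown. Leaving out 1 library at a time gave 0.0079 to 0.22, the lowest without wild-type library 3. In that test 1 of the 20 rows was called (5%; 4 at an unadjusted p under 0.05, 20%), TRBV13-3, and 0 with the number as a block (3 unadjusted, 15%). Without the block the J2 to J1 fits gave all V rows nearly the same SE, because limma pooled the spread over rows. With the block this held for the ratio itself. The blocked SE of the difference relative to the other rows ran from 0.112 (TRBV5) to 0.205 (TRBV14). The rows share libraries and are not independent, which this pooling does not allow for. Without knockout library 3 the ratio of TRBV31 was called lower (-0.40, limma adjusted p = 0.0355). With TRBJ1-1 and TRBJ2-7 left out of the cluster sums the difference was -0.04 (limma adjusted p = 0.856), and that relative to the other rows 0.43 (limma adjusted p = 0.162).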

How the data were processed

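Total RNA of thymocytes was, per the labels' protocols, turned into cDNA by 5′ RACE, amplified from the adaptor to the constant region of the receptor, and read as pairs. Reads were trimmed with fastp, per the submitters' processing notes, with no version stated; which aligner, segment caller and build were used is not given in the sources used here. The deposited values are percent: the V–J cells of each of the 6 Tcrb tables sum to the whole, so the authors scaled each library to its own total. The smallest value above 0, which limits the precision, lay between 0.00570% and 0.0133%. All values of a library were whole multiples of it, within 0.01 of a step; TRBV31 came to 823, 390 and 351 steps in wild-type libraries 1, 2 and 3 and to 786, 202 and 244 in the knockout, and its lowest pair to 6 steps (knockout libraries 2 and 3). What 1 step counts (reads or clonotypes) is not stated and no molecular identifiers are named, so steps were not treated as counts and no counting intervals were computed.

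Groups came from the labels. Shares and pairs with a mean of at least 0.1% and J2 to J1 ratios of V rows of at least 0.5% were analysed on the log2(percent + 0.00570) scale by limma 3.58.1 (R 4.3.3), the smallest value of the finest library, with Benjamini-Hochberg adjustment over the whole table and calls at 0.05; fold changes on this scale understate those of low cells. All 11 TRBV31 pairs passed the filter. Equal library numbers were taken to pair the libraries, since residuals of equal numbers correlated above 0.1 in V rows (0.767, 0.610, 0.489; without TRBV31 0.670, 0.588, 0.476) and pairs (0.375, 0.250, 0.324); the labels do not say what a number stands for. Blocked values are given where they change a count of calls. Some of the fits were also run on simulated data, but the outcome is not given here and lends no weight to the values above. The alternatives were another pseudocount, other filters, each library left out, the block, centred log-ratios, a median comparison and other cluster sums; leaving out number 1 was added after seeing the data. Named rows were TRBV31 with its 11 J partners, position groups, rank neighbours, TRBV30, the 3 nearest by J profile and by share, and the extremes of the J ratio. TRBV31 and these lists were chosen with earlier results of these data known. TRBJ1-6 was not among the 11 J columns, and the other chains were not analysed here. Positions came from GENCODE M21 by name, matching 22 of 22 V rows; Python 3.11.15, Biopython 1.88 and matplotlib 3.10.9 were used.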

Additional observations from a re-analysis of the deposited data

How the results depend on the processing

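No count of called TRBV31 pairs moved from 0 under the alternatives run (lowest adjusted p 0.0897). With the number as a block the adjusted p was 0.153 for the share (-0.24) and 0.162 for the J2 to J1 ratio (-0.27), and the block changed no call of TRBV31; it moved the called V shares from 0 to 3. Leaving out 1 library at a time, log2 differences from wild type ranged from -0.49 to 0.020 for the share, the positive value being without wild-type library 1, and from -0.40 to -0.14 for the J2 to J1 ratio, called only without knockout library 3. In percentage points the share ranged from -1.21 to 0.143, and the entropy from -0.0240 to 0.0327 bits. Among single J partners the sign of the difference in library share turned for TRBJ1-3 (-0.31 to 0.76), TRBJ1-4 (-0.22 to 0.16), TRBJ2-2 (-0.23 to 0.30, and -0.037 without the libraries of number 1) and TRBJ2-3 (-0.47 to 0.13). The departure from the other rows turned for TRBJ2-2 (-0.0089 to 0.30), TRBJ2-4 (-0.14 to 0.016) and TRBJ2-7 (-0.12 to 0.0081), and its genotype difference for TRBJ1-3 (-0.064 to 0.41), TRBJ1-4 (-0.19 to 0.00081), TRBJ2-3 (-0.0074 to 0.48), TRBJ2-4 (-0.25 to 0.058) and TRBJ2-7 (-0.15 to 0.098). The cause was not tested. Called V shares were 1 with a filter at 1%, 2 after centring and 1 without knockout library 3; called ratios were 4 and called departures 0 without a filter; called pairs were 2 with the larger pseudocount and 2 without wild-type library 3, against 0. What 1 step of the percentages counts is not stated, and counting error was not set apart from the spread between libraries.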

Other observations

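Of the 6 V–J pairs that limma called as departing from the J use of the other V rows, 6 were below expectation and 3 involved TRBJ1-2: TRBV5 (-0.56 on the log2 scale), TRBV15 (-1.11) and TRBV17 (-0.70). The pair of TRBV31 with TRBJ1-2 lay at 0.29 (95% interval -0.15 to 0.73) and was not called. TRBV31 was not alone above expectation with TRBJ1-2, and rows lay on both sides. TRBV13-3 had means of 0.54 in wild type and 0.25 in the knockout, and TRBV12-1 had 0.42 and 0.26. Below expectation, TRBV1 had -0.49 and -0.09. These pairs were picked after their values were seen, the difference between TRBV31 and those rows was not tested, and leaving out any 1 of the 6 libraries brought the 6 calls to between 0 and 2. In wild-type library 3 the pair of TRBV31 with TRBJ1-2 lay 1.57 above expectation on the log2 scale, the highest value of the 11 TRBV31 pairs in the 6 libraries.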
